A study of Mus musculus with 15 samples.

Results

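Mycn, which encodes the transcription factor N-Myc, and 4 genes that lie near it on mouse chromosome 12 were read in lung tumours and normal lungs of mice. The genes are Mycn, Ddx1, Nbas, Lratd1 (older symbol Fam84a) and Cyria (older symbol Fam49a), 5 of the 18194 genes that the arrays measured, with 10 of 45037 probe sets. They were chosen by measured values of these tumours: in 1 tumour, Rb/p53 tumour 7, Mycn and several genes beside it on the chromosome stood far above the other tumours. The levels of tumour 7 at this locus are therefore a description and carry no test.

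The study used Affymetrix whole-genome arrays to ask how near such mouse tumours come to human small cell lung cancer (SCLC), a fast-growing cancer of neuroendocrine character. There were 10 lung tumours of genotype RbΔ/Δ; p53 Δ/Δ, here Rb/p53 tumours 1 to 10, dissected 8 to 12 months after an adenovirus carrying Cre recombinase had been given through the nose. The other 3 tumours, here Rb/p53/p130 tumours 11 to 13, carried the same deletions and p130 Δ/Δ in addition and were dissected 6 months after the same virus. The controls were 2 tumour-free lungs of wild-type adult mice, whose age and treatment the labels do not give further. Cre removes the targeted alleles only in the airway cells that the virus reaches, so dissected tumours also hold cells that kept them. Whether each sample had its own mouse is not in the labels, and the p-values then cover only the spread of these samples, which may be technical.

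N-Myc belongs to the MYC family of transcription factors with c-Myc (Myc) and L-Myc (Mycl). These proteins pair with MAX on DNA and raise genes of ribosome production, metabolism and division. Copy number gains of MYCN, MYC and MYCL are known in human SCLC, and MYCN gains are best known in neuroblastoma, where the neighbouring DDX1 and NBAS are often gained with it. Ddx1 encodes an RNA helicase of the tRNA ligase complex. Nbas encodes a subunit of the NRZ complex, which tethers vesicles returning from the Golgi to the endoplasmic reticulum. Lratd1 encodes a protein with the domain of lecithin retinol acyltransferase, and Cyria a protein that binds the GTPase Rac1 and restrains the actin-building WAVE complex.

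The start of each gene is shown so that the promoters of neighbours that stood high together, and of Cyria, which did not, can be set side by side. Each sequence runs from 250 bases before to 50 bases after the transcription start in RefSeq (build GRCm38.p6), 5′ to 3′ on the strand of the gene. Capitals mark matches, on either strand, to the E-box CACGTG of MYC and MAX, to the E2F motif TTTNNCGC and to the GC box GGGCGG. All 5 genes had an entry, at chr12:12941787-12942086 (minus strand) for Mycn, chr12:13249125-13249424 (minus strand) for Ddx1, chr12:13268877-13269176 (plus strand) for Nbas, chr12:14151989-14152288 (minus strand) for Lratd1 and chr12:12261927-12262226 (plus strand) for Cyria.
Mycn: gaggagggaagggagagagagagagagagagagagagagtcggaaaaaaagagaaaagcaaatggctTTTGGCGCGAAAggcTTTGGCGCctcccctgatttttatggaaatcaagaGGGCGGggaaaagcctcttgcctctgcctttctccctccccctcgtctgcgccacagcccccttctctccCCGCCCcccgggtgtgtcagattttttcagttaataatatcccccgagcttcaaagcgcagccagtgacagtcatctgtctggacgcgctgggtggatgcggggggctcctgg
Ddx1: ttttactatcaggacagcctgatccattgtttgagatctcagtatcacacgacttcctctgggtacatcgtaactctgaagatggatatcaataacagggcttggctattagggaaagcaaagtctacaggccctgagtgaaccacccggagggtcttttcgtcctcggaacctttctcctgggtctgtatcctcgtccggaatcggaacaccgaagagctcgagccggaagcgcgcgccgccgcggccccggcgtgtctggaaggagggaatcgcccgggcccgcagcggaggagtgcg
Nbas: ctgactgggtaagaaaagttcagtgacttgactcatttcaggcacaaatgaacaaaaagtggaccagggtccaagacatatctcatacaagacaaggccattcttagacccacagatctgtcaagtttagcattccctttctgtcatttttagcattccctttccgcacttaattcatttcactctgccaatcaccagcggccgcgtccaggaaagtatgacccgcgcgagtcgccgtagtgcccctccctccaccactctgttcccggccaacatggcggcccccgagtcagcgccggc
Lratd1: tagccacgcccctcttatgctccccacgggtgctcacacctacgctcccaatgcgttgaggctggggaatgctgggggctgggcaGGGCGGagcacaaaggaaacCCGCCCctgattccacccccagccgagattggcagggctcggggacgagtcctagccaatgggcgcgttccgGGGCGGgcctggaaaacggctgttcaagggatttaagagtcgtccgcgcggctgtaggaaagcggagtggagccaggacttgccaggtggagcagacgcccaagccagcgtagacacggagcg
Cyria: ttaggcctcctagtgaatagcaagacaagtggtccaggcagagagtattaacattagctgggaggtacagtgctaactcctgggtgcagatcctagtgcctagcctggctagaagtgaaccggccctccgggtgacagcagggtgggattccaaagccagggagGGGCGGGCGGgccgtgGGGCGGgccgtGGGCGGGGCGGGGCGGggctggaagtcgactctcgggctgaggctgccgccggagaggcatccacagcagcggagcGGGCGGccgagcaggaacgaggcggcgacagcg

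The Mycn window held 3 E2F matches, of which the first and the second overlap, and 2 GC boxes. Lratd1 had 3 GC boxes and Cyria 7, while the windows of Ddx1 and Nbas had no match to any of the motifs. Of 32851 RefSeq windows of 300 bases, 5.17% held the E2F motif, 35.7% the GC box and 7.15% the E-box. The 11 genes near Mycn that stood high in tumour 7, described below, had 13 windows. The E-box was found in 1 of these (Ntsr2), the E2F motif in 1 (Mycn) and the GC box in 4. A match describes letters only, and a window without one says nothing of the factor.

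On the arrays every value is a log2 level of a probe set, so a difference of 1 is a change of 2-fold. Medians of the 15 arrays lay between 6.58 and 6.68 and the lower quartile reached at most 5.05, a level not shown to be above background. Levels of different probe sets are not compared, since each binds its target with its own strength. A gene was read from its brightest probe set unless another is named. All 11 measured neuroendocrine markers were higher in both tumour groups than in normal lung (18.3% of all genes were higher in Rb/p53 tumours by limma, adjusted p under 0.05, and 15.3% in Rb/p53/p130 tumours). Their mean was 11.08 in tumour 7 and 11.05 to 11.87 in the other Rb/p53 tumours, against 5.26 to 5.65 in normal lung. Rb1 and Rbl2 (p130) gave no check of the genotypes, since the sources used here do not place their probes within or outside the deleted exons. Trp53 was not analysed here.

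Mycn was at 12.19 in tumour 7. In the other 9 Rb/p53 tumours its lowest level was 6.11 (tumour 4), the median 7.37 and the highest 8.90 (tumours 1 and 8). The Rb/p53/p130 tumours were at 7.76, 7.73 and 7.77, and the normal lungs at 6.19 and 6.21. Tumour 7 was thus alone at the top, with a gap to the next tumours that was wider than the whole range of the other 9. It exceeded the median of the other 9 by 4.82, or 28.3-fold. Tumours 2 and 4 (6.34 and 6.11) were close to normal lung, and the Rb/p53/p130 tumours lay inside the range of the other Rb/p53 tumours.

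Ddx1 stood at 14.47 in tumour 7, against a lowest level of 10.58, a median of 11.31 and a highest level of 11.61 in the other 9 Rb/p53 tumours. The Rb/p53/p130 tumours were at 11.38, 11.40 and 11.30, and the normal lungs at 10.19 and 10.54. The difference in tumour 7 was 3.16 (8.93-fold), and no other sample came near it. Nbas stood at 12.23 in tumour 7, against 8.11, 8.56 and 9.19 (lowest, median and highest) in the other 9, a difference of 3.67 (12.7-fold). Its other samples formed one narrow group, with Rb/p53/p130 tumours at 8.50, 8.45 and 8.48 and normal lungs at 8.69 and 8.80.

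Lratd1 stood at 12.53 in tumour 7, against 6.76, 8.31 and 9.18 (lowest, median and highest) in the other 9, a difference of 4.22 (18.6-fold). The Rb/p53/p130 tumours were at 9.22, 9.42 and 10.19, all above these 9, and the normal lungs at 8.22 and 8.26. The 12 tumours other than tumour 7 thus spread from 6.76 to 10.19.

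Cyria, the next measured gene on the other side of Mycn, was not raised. Its level in tumour 7 was 7.95, against 7.27, 8.62 and 9.15 (lowest, median and highest) in the other 9, a difference of -0.67. Only tumour 2 lay lower. The Rb/p53/p130 tumours were at 8.57, 8.37 and 8.58 and the normal lungs at 10.84 and 10.65. Cyria is therefore a neighbour of Mycn by position but lay outside the group of genes that stood high together.

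**Figure D1:**
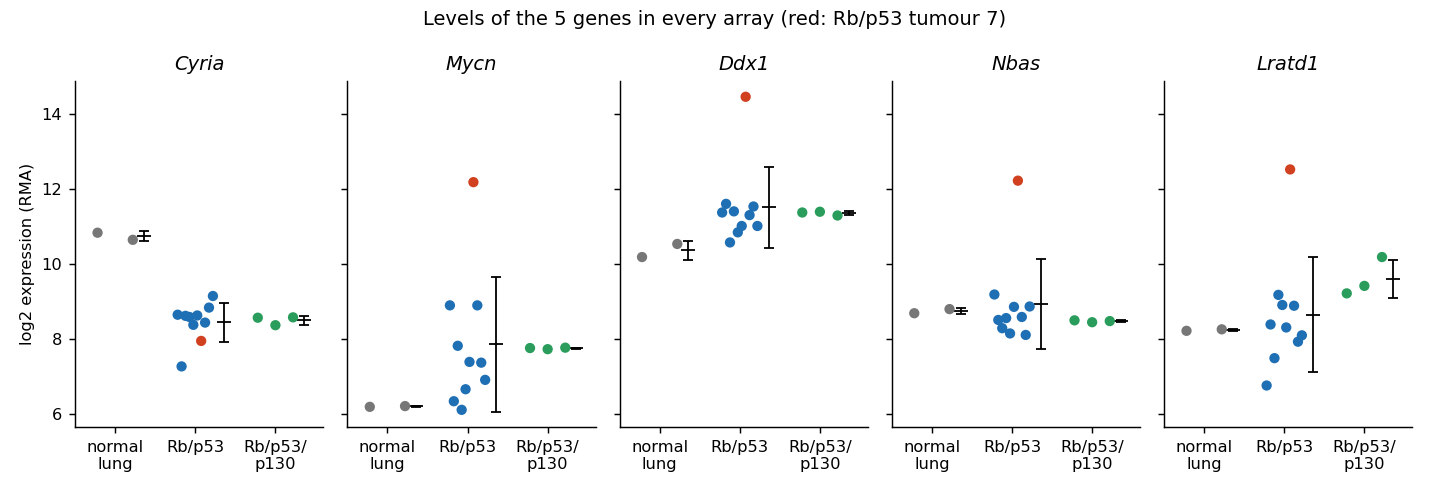
Log2 level (y axis) of the brightest probe set of Cyria, Mycn, Ddx1, Nbas and Lratd1, with 1 point per array, by group (x axis, tumour 7 in red); the marks beside the points give the mean and SD of each group. Tumour 7 is the highest point for Mycn (12.19), Ddx1 (14.47), Nbas (12.23) and Lratd1 (12.53), and lies within the other Rb/p53 tumours for Cyria (7.95).

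The further probe sets of the members gave the same picture with 2 limits. A second Mycn probe set was at 10.19 in tumour 7 and at 5.79 to 6.60 in the other 9 (difference 4.14), while the remaining 1 stayed between 6.61 and 7.04 in all 10 Rb/p53 tumours (difference 0.18). The second Ddx1 probe set was at 13.77 against 9.52 to 10.64 (difference 3.34). The second Nbas probe set was at 6.00 in tumour 7 and at 4.08 to 4.56, below the 5.05 mark, in the other 9 (difference 1.84). The second Cyria probe set was below that mark in every sample (4.03 in tumour 7). Mycn thus had 1 of 3 probe sets without the difference, and the sources used here do not place the probes on the transcript.

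The extent of the raised block was read by setting the measured protein-coding genes in their RefSeq order. A gene was counted as raised where tumour 7 was the highest of the 10 Rb/p53 tumours and at least 1 above the median of the other 9, which held for 2.47% of all genes (450 of 18194). From Mycn towards higher coordinates, 8 consecutive measured genes were raised: Mycn, Ddx1, Nbas, Lratd1, Trib2, Lpin1, Ntsr2 and Greb1. Their differences ran from 3.16 (Ddx1) to 6.29 (Ntsr2). The run ended sharply on both sides. E2f6, a repressive E2F and the next gene after Greb1, had a difference of -0.09, and Pqlc3 after it -0.57. Cyria (-0.67) and Vsnl1 (-0.05), a neuronal calcium sensor, were the genes before Mycn. DNA copy number was not analysed here.

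Of the genes beyond Lratd1, Ntsr2 and Greb1 stood out most. Ntsr2, a receptor for the peptide neurotensin, was at 12.97 in tumour 7 against 5.94 to 7.22 in the other 9, a difference of 6.29 (78.2-fold). The Rb/p53/p130 tumours were at 6.36, 6.63 and 6.48 and the normal lungs at 5.85 and 5.78, so it was low in every other sample. Greb1, known as an oestrogen-responsive gene, was at 12.48 in tumour 7 and at 4.04 to 8.23 in the other 9, a difference of 6.17 (72.1-fold). Its other tumours were spread widely, with Rb/p53/p130 tumours at 6.72, 6.92 and 5.95 and normal lungs at 5.46 and 5.18.

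Trib2, a pseudokinase that steers proteins to degradation, was at 12.94 in tumour 7 against 8.03 to 10.15 in the other 9 (difference 3.51). Its Rb/p53/p130 tumours were at 9.01, 8.93 and 9.75, and its normal lungs, at 10.72 and 11.15, lay above all tumours but tumour 7. Lpin1, a phosphatidate phosphatase of lipid synthesis, was at 12.88 against 8.50 to 9.30 (difference 3.83). Its other groups did not leave that band by much, with Rb/p53/p130 tumours at 8.67, 8.81 and 9.08 and normal lungs at 9.12 and 9.52.

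Further raised genes lay apart from the run, on the other side of Mycn. Among the 25 measured genes on each side, 51 with Mycn, 11 were raised (21.6%, against 2.47% of all genes). The 3 outside the run were Rdh14, Hs1bp3 and Ldah, which lie 7, 18 and 19 measured genes before Mycn with genes between that were not raised. Ldah, a hydrolase of lipid droplets, was at 13.29 in tumour 7 and at 8.94 to 9.54 in the other 9, a difference of 3.96 (15.5-fold). Rdh14, a retinol dehydrogenase, was at 13.65 against 9.05 to 10.24 (difference 3.76, 13.6-fold). Hs1bp3, which binds a haematopoietic signalling protein, was at 10.15 against 6.62 to 7.63 (difference 2.90, 7.47-fold). The raised genes near Mycn thus made up 3 separate stretches: Ldah with Hs1bp3, Rdh14 alone, and the run from Mycn to Greb1.

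**Figure D2:**
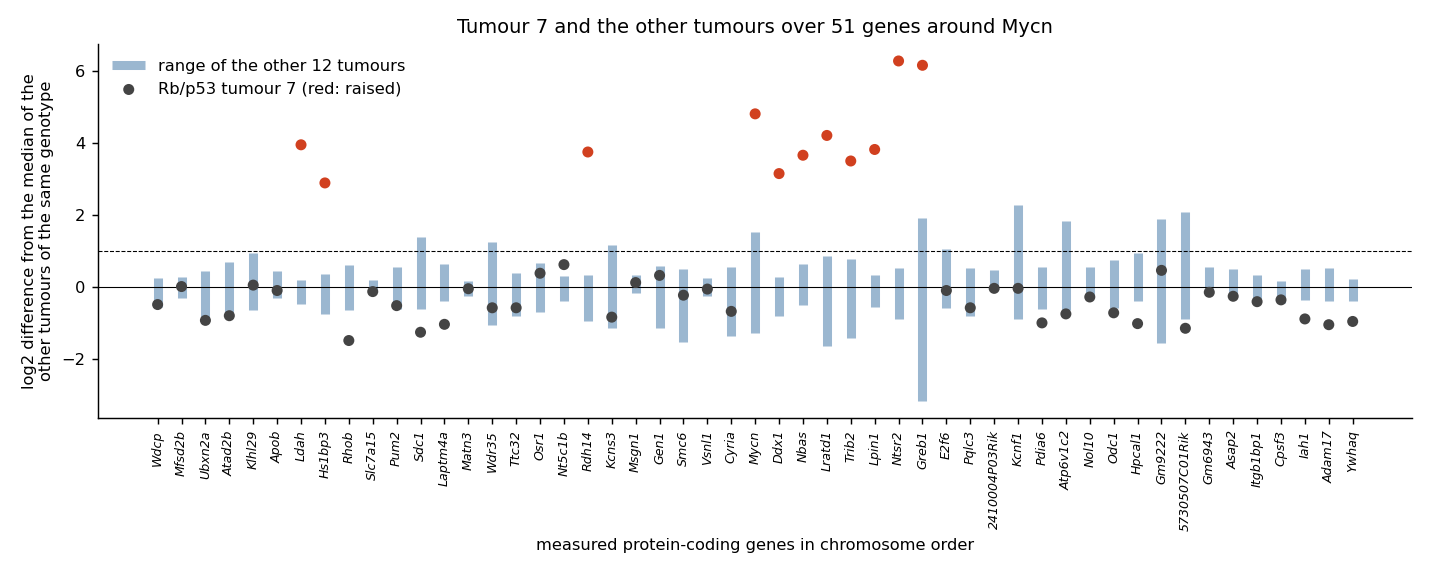
Difference between Rb/p53 tumour 7 and the median of the other 9 Rb/p53 tumours (log2, y axis) for the 51 measured genes around Mycn in chromosome order (x axis, place from Mycn, without scale for distance). The 11 raised genes lie between 2.90 and 6.29, and the 40 others between -1.48 and 0.63.

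The genes between and around these stretches were not raised. The 40 others of the window had a median difference of -0.44, from -1.48 (Rhob, a small GTPase) to 0.63 (Nt5c1b), with 33 below 0. For all genes the median was -0.03, with 53.7% below 0. At or below -1 were 6 of the 40, against 5.74% of all genes, so the 6 were a larger share than in all genes. Some genes counted as not raised lay below the 5.05 mark in tumour 7. They were Apob (4.97), Slc7a15 (5.02), Matn3 (4.46), Nt5c1b (4.45) and 5730507C01Rik (4.88), which say little of the extent. No gene lay near the threshold: the lowest raised difference was 2.90 and the next below it 0.63. Probe sets divided in the same way: 26 of 29 probe sets of the 11 raised genes were raised and 0 of 82 of the 40 others. These counts include the brightest probe set of each gene (11 and 40), by which the genes were sorted. Only the further probe sets could have differed. The 3 exceptions were the Mycn probe set above, 1 of 3 of Trib2 (3.70 in tumour 7, below the 5.05 mark) and 1 of 6 of Ldah (5.09).

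**Figure D3:**
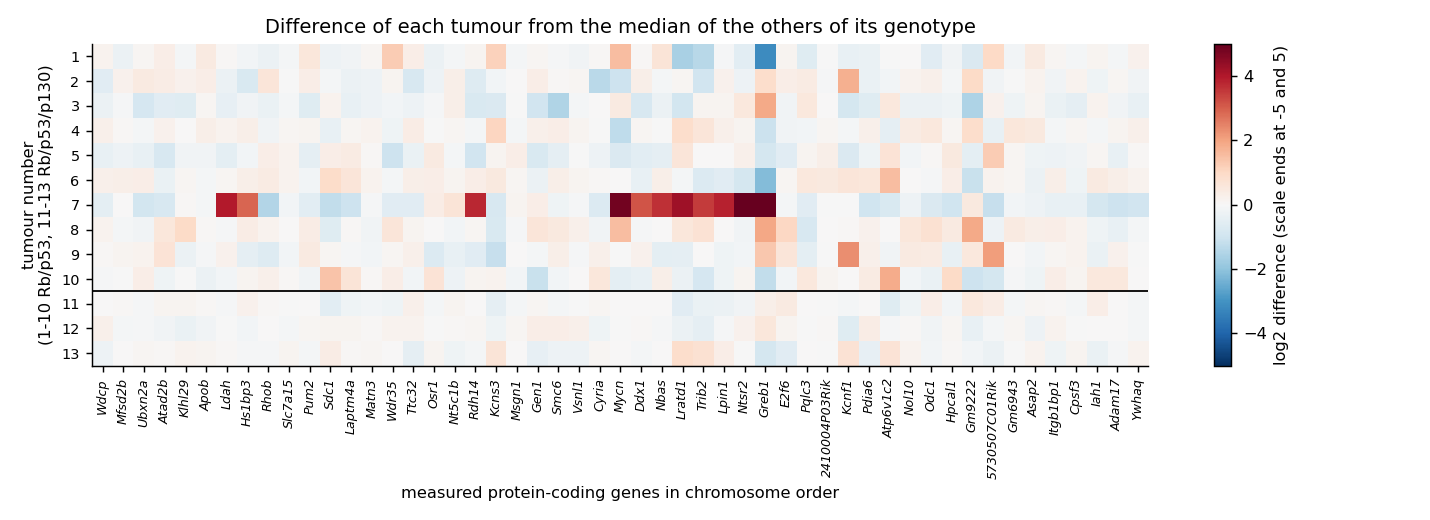
Colour gives the log2 difference of each of the 13 tumours (y axis, 1 row per tumour) from the median of the other tumours of its genotype, for the 51 measured genes around Mycn (x axis, in chromosome order; the colour scale ends at differences of 5 in either direction). Tumour 7 is the only row with the block of 8 consecutive raised genes, and the other 12 tumours have 0 to 2 raised genes each. The other Rb/p53 tumours could not count as raised in this block, since a raised gene had to be the highest of its genotype.

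The same count was made in every tumour, each set against the other tumours of its genotype (9 for an Rb/p53 tumour, 2 for an Rb/p53/p130 tumour). In the other 12 tumours 0 to 2 of the 51 genes were raised, and none had Mycn in a run. For the other 9 Rb/p53 tumours the rule fixed this at the 11 genes raised in tumour 7. A raised gene had to be the highest of its genotype, and tumour 7 was. By the difference alone, the highest value in the other 12 tumours was 1.53 for Mycn and 1.92 for Greb1. It was below 1 for the rest of the 11 genes. Along the whole genome, with 16465 measured genes in order, the run from Mycn to Greb1 was the longest of any tumour. The longest runs elsewhere held 2 to 4 genes, and tumour 7 had no other run of 3 or more. Among all 18194 genes ranked by the difference in tumour 7, Ntsr2 was at rank 2, Greb1 at rank 4, Mycn at rank 7, Lratd1 at rank 13, Ldah at rank 16, Lpin1 at rank 18, Rdh14 at rank 19, Nbas at rank 21, Trib2 at rank 23, Ddx1 at rank 26 and Hs1bp3 at rank 36. These ranks, like the run, describe the values that chose the genes. Ranks 3 and 12 were held by Eif2s3y (6.23) and Kdm5d (4.26), both on the Y chromosome and named after their values were seen. The sex of the mice was not used in any comparison.

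Farther along chromosome 12, with 544 measured genes, the difference did not stay high. In the stretches of 50 genes from Greb1 on the median difference was -0.43 (places 51 to 100), -0.42 (101 to 150), -0.41 (151 to 200) and -0.33 (201 to 250). In the other 12 tumours the medians of these stretches ran from -0.25 to 0.15, from -0.27 to 0.09, from -0.53 to 0.20 and from -0.46 to 0.13, so tumour 7 was the lowest of the 13 in the first and second of them. From place 301 to 350 the median was 0.10. Over the whole chromosome the median was -0.12 in tumour 7. It was -0.12 in tumour 5, -0.33 in tumour 3 and -0.02 to 0.10 in the other tumours. On chromosome 14, chosen after its value was seen, the median was -0.35 in tumour 7. Outside the window the highest raised gene of the chromosome was the potassium channel Kcnh5 (3.44, at place 245), also chosen after its value was seen.

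**Figure D4:**
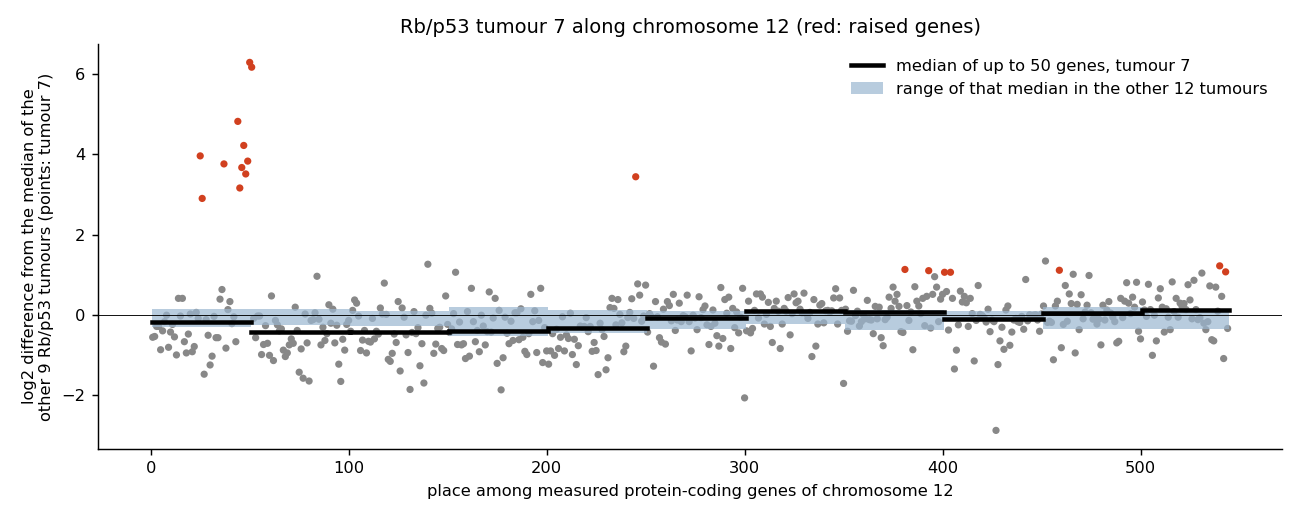
Difference between Rb/p53 tumour 7 and the median of the other 9 Rb/p53 tumours (log2, y axis) for 544 measured genes in their order on chromosome 12 (x axis, place from the first measured gene). The raised genes near Mycn (place 44) stand between 2.90 and 6.29, and the medians of the 4 stretches of 50 genes from Greb1 on lie between -0.43 and -0.33.

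Likeness to Mycn was read as the correlation of levels across tumours. Over the 13 tumours the level of Mycn had a Pearson correlation of 0.80 with Ddx1, 0.86 with Nbas, 0.57 with Lratd1 and -0.15 with Cyria. Over the 12 tumours without tumour 7 these values were -0.01, 0.34, -0.24 and 0.27, so the likeness to Ddx1 and Lratd1 rested on that tumour. The likeness to Nbas was also weaker without it, at place 4048 of 18193. Ranked among 18193 genes over the 13 tumours, Nbas was at place 23, Ddx1 at 94, Lratd1 at 1177 and Cyria at 11308. The 10 genes most like Mycn over 13 tumours were Corin (0.93), Zdhhc25 (0.92), 4833422C13Rik, Txnrd3, Recql, Zscan12, Prmt6, Agbl3, Ube2e3 and Dmrta1. None of these was one of the 51 genes around Mycn. Over 12 tumours they were Cables2 (0.94), Cachd1 (0.94), Ulk2, Srgap3, Pfn2, Sestd1, 2310047K21Rik, Pdhx, Zswim1 and Particl. These values describe 13 or 12 tumours, and with so many genes ranked a high value is no finding.

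The other MYC genes did not follow Mycn. Mycl was at 10.39 in tumour 7, against 9.39, 11.57 and 13.36 (lowest, median and highest) in the other 9. Its highest levels were in tumours 9 (13.36) and 4 (13.16), where Mycn was at 7.37 and 6.11. Myc was at 7.24 in tumour 7, with only tumour 9 lower (7.07), against a highest level of 8.61. The correlation of Mycn with Mycl was -0.45 over 13 tumours and -0.43 over 12, and with Myc -0.33 and 0.03. Max, the partner of all 3, was at 8.60 in tumour 7 and at 8.37 to 9.28 in the other 9. Of the 13 genes of the MYC and MAX network none was both raised and highest in tumour 7 (0 at least 1 above the median, against 3.18% of all genes) and their median difference was -0.05. Of the MAX partners that oppose MYC, Mxd3 had a difference of 0.77, Mxi1 of 0.74, Mxd1 of 0.49, Mnt of -0.05 and Mxd4 of -0.57, and Mga, another partner of MAX, of 0.71. Mycs (-0.14), Mlx (-0.73), Mlxip (-0.04) and Mlxipl (0.13) complete the list.

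Genes that MYC proteins are known to raise were somewhat higher in tumour 7. Of 29 measured growth targets, the median difference was 0.37, against -0.03 over all genes. The mean of the list was 10.80 in tumour 7, the highest of the 10, with 10.05 to 10.70 in the other 9, 10.28 to 10.41 in Rb/p53/p130 tumours and 9.39 to 9.42 in normal lung. At least 1 above the median, and highest of the 10, were Srm of spermidine synthesis (1.85, at 12.55 against 9.56 to 11.89), Nop16 of the nucleolus (1.71, at 9.96 against 7.70 to 9.03) and Rrp12 of ribosome export (1.16, at 8.92 against 6.66 to 8.27). That is 3 of 29, where 3.18% of all genes were at least 1 above. Odc1 of polyamine synthesis, also on chromosome 12, went the other way (-0.71), as did the cyclin gene Ccnd2 (-0.96). The list stood above normal lung in the tumours as a whole. In limma 20 of 29 were higher and 1 lower (Ccnd2) in Rb/p53 tumours, where 18.3% and 20.5% of all genes were, and 15 were higher and 1 lower in Rb/p53/p130 tumours, where 15.3% and 15.6% of all genes were.

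Genes that work with the members' proteins, or are related to them, were read in the same way. For the cofactors and regulators of N-Myc the mean over 16 genes was 9.54, the highest of the 10, against 9.15 to 9.52 in the other 9, and no gene was at least 1 above. The kinase Aurka, which stabilises N-Myc, was at 10.70 against 9.76 to 10.61, and Fbxw7, which marks it for degradation, had a difference of -0.52. For the tRNA ligase partners of Ddx1, Fam98a had a difference of 0.52, Fam98b of 0.30, Rtcb of -0.14 and Rtraf of -0.15. For the NRZ complex of Nbas and its vesicle partners the median over 8 genes was -0.08, with Rint1 at 0.26, Zw10 at 0.16 and Scfd1, also on chromosome 12, at -0.96. For the WAVE complex and relatives of Cyria the median over 11 genes was 0.22, with Cyrib at 0.38 and Cyfip2 at -0.95. The mean of the 4 relatives of Lratd1 was 7.42 in tumour 7, the lowest of the 10, against 7.57 to 8.75, with Lrat at -2.20 (4.70, against 4.96 to 7.37), Plaat3 at -1.62, Lratd2 at -0.37 and Plaat1 at 0.41. A difference at or below -1 was met by 2 of these 4 genes and by 5.74% of all genes.

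Marker lists of other cell types were read beside these levels, and they did not all move one way in tumour 7. The mean of 8 endothelial markers was 6.28 in tumour 7, the lowest of the tumours, against 6.81 to 8.54 in the other 9, 7.20 to 7.44 in Rb/p53/p130 tumours and 10.92 to 11.52 in normal lung. Club cell (10.51 against 10.79 to 13.06), ciliated cell (6.46 against 6.47 to 7.12) and T and B cell markers (5.31 against 5.62 to 6.76) were also lowest there among the 10, and alveolar type 2 markers were at 10.16 against 9.62 to 12.81. At least 1 below the median were 6 of 7 alveolar type 2, 4 of 8 endothelial, 3 of 6 club cell and 3 of 7 T and B cell genes. The same held for 1 of 6 ciliated cell and 1 of 6 macrophage genes, and none of these lists had a gene at least 1 above. Fibroblast markers were at 10.08 against 9.13 to 10.90, with 2 of 6 at least 1 above the median and 1 at least 1 below. Of 6 hepatocyte genes 1 was at least 1 above. Of all genes 3.18% were at least 1 above and 5.74% at least 1 below. Macrophage markers (9.32 against 8.80 to 10.23) and hepatocyte markers (6.22 against 5.77 to 8.41) lay inside the range of the other 9. In whole tissue, fewer cells of a type and less RNA per cell cannot be told apart, and the part of these markers in the levels at the Mycn locus was not tested. The 4 members that stood high in tumour 7 were at levels in normal lung that lay within or below the range of the other Rb/p53 tumours. Levels of whole lung do not show which cells tumour 7 held.

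Set against normal lung, the Rb/p53 tumours show which members differ between tumour and lung. Cyria was the only member that passed the test with all arrays. It was 4.91-fold lower in the tumours (log2 change -2.30 ± 0.33, SE, 10 against 2 arrays, limma adjusted p = 7.45e-05), where 20.5% of all genes were lower. All 10 tumours lay below both lungs, as they did for 20.2% of all genes. Without tumour 7 the change was -2.24 ± 0.32 (limma adjusted p = 0.000105), where 20.6% were lower. Markers of other cell types were called lower for 8 of 8 endothelial, 6 of 6 ciliated cell, 5 of 7 alveolar type 2, 4 of 6 club cell, 5 of 7 T and B cell and 1 of 6 fibroblast genes. Of 6 macrophage genes 3 were called higher and 1 lower, and of 6 hepatocyte genes 1 higher. Of all genes 18.3% were called higher and 20.5% lower. The part of these markers in the change of Cyria was not tested. The difference between the 3′ and 5′ Gapdh controls, a measure of RNA length, also separated the groups, with 0.88 and 0.72 for the lungs and -0.07 to 0.36 for the tumours. With it as a covariate Cyria had a change of -2.60 and was not called (limma adjusted p = 0.0911, with a range of 4.74e-06 to 0.0911 over all settings), and with its second probe set averaged in, the change was -1.24.

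Ddx1 was higher in all 10 Rb/p53 tumours than in either lung, as were 18.2% of all genes, but passed the test only without tumour 7. Its change was 1.16 ± 0.67 with all arrays (limma adjusted p = 0.215) and 0.83 ± 0.22 without tumour 7 (limma adjusted p = 0.0111), where 18.7% of all genes were higher. The second Ddx1 probe set had 0.30 ± 0.25 without tumour 7 (limma adjusted p = 0.411), and with the Gapdh covariate the change of Ddx1 was 0.04 (limma adjusted p = 0.993, with a range of 0.0111 to 0.993 over all settings).

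Mycn, Nbas and Lratd1 did not pass. The change of Mycn was 1.66 ± 1.10 with all arrays (limma adjusted p = 0.285) and 1.18 ± 0.61 without tumour 7 (limma adjusted p = 0.168), with 9 of the 10 tumours above both lungs. Nbas had 0.19 ± 0.74 and, without tumour 7, -0.18 ± 0.23 (limma adjusted p = 0.880 and 0.611). Lratd1 had 0.41 ± 0.95 and -0.02 ± 0.49 (limma adjusted p = 0.790 and 0.982), so the sign of both turned with that tumour.

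The same 2 lungs were set against the 3 Rb/p53/p130 tumours, so this comparison shares its controls with the last. Cyria was 4.74-fold lower (log2 change -2.24 ± 0.39, 3 against 2 arrays, limma adjusted p = 0.000545), where 15.6% of all genes were lower, and tumours and lungs did not overlap, as for 33.2% of all genes. Without tumour 7 in the fit the adjusted p was 0.000514 in limma, where 16.5% were lower. With the Gapdh covariate it was not called (-2.56, limma adjusted p = 0.134, with a range of 1.67e-05 to 0.134 over all settings). Ddx1 had 0.99 ± 0.79 (limma adjusted p = 0.411), and 0.99 ± 0.26 (limma adjusted p = 0.0116) without tumour 7, where 16.2% of all genes were higher. The second Ddx1 probe set had 0.51 ± 0.29 there (limma adjusted p = 0.232), and with the Gapdh covariate the change of Ddx1 turned to -0.18 ± 1.75 (limma adjusted p = 0.976, with a range of 0.00283 to 0.976 over all settings).

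Mycn was above both lungs in all 3 Rb/p53/p130 tumours, and so were Ddx1 and Lratd1, as were 32.8% of all genes. The change of Mycn was 1.55 ± 1.30 (limma adjusted p = 0.440), 1.55 ± 0.72 without tumour 7 (limma adjusted p = 0.133) and 1.55 ± 0.10 in a fit of these 5 arrays alone (limma adjusted p = 0.000176), where 22.4% of all genes were higher. The other probe sets of Mycn had changes of 0.02 and 0.07, with limma adjusted p-values of 0.991 and 0.789 with all arrays. Its call thus turned on whether the spread of the Rb/p53 tumours was shared. Lratd1 had 1.38 ± 1.12 (limma adjusted p = 0.428), and 1.38 ± 0.29 in the fit of these arrays alone (limma adjusted p = 0.0131). Nbas lay below both lungs in all 3 tumours, as did 33.2% of all genes. Its change of -0.27 did not pass (limma adjusted p = 0.871).

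Of the 7 other raised genes near Mycn, none was called against normal lung by its brightest probe set with all arrays, in either group. A further probe set of Ldah was lower in Rb/p53 tumours (-0.72, limma adjusted p = 0.0113), where 20.5% of all genes were lower. Without tumour 7, where 18.7% of all genes were higher and 20.6% lower in Rb/p53 tumours, Trib2 was lower by limma (-1.78 ± 0.47, adjusted p = 0.0101) and in Rb/p53/p130 tumours too (-1.71 ± 0.55, adjusted p = 0.0346), where 16.5% were lower. Hs1bp3 was lower (-0.62 ± 0.21, limma adjusted p = 0.0367) and Ntsr2 higher (0.84 ± 0.24, limma adjusted p = 0.0148) in Rb/p53 tumours, while Rdh14, Ldah, Lpin1 and Greb1 were not called by their brightest probe sets. Probe sets disagreed for Hs1bp3, whose second had a change of 0.08 (limma adjusted p = 0.748), and for Ldah, for which 1 further probe set was higher (1.28, limma adjusted p = 0.000648) and 1 lower (-0.69, limma adjusted p = 0.0153). The second probe set of Trib2 was lower in Rb/p53 tumours (-1.35, limma adjusted p = 0.0183) but not called in Rb/p53/p130 tumours (-1.05, limma adjusted p = 0.12), and its other one had changes of 0.14 and -0.02.

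Between the genotypes no member passed, and few genes did at all (0.0715% of all genes with all arrays and 0.0769% without tumour 7). Mycn differed by -0.11 ± 0.93 (Rb/p53/p130 minus Rb/p53, limma adjusted p = 0.985) and Cyria by 0.05. The largest difference of a member was that of Lratd1, at 0.96 ± 0.81 with all arrays (limma adjusted p = 0.766) and 1.39 ± 0.42 without tumour 7 (limma adjusted p = 0.220). Without tumour 7 the 3 Rb/p53/p130 tumours lay above all 9 Rb/p53 tumours for Lratd1, as they did for 1.39% of all genes. The number of arrays limits what these comparisons can show.

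**Figure D5:**
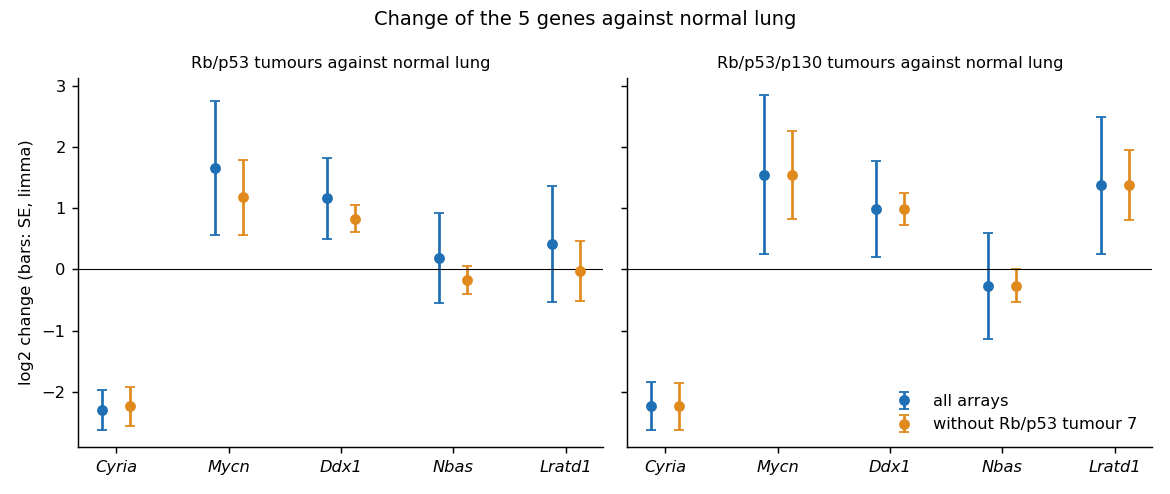
Log2 change with its SE from limma (y axis) for each member (x axis) in both tumour groups against normal lung, with all arrays and without Rb/p53 tumour 7. Cyria lies at -2.30 and -2.24 against normal lung, and the errors of Mycn, Ddx1, Nbas and Lratd1 shrink when tumour 7 is left out.

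The groups were also ordered by level. Mycn was at 7.75 ± 0.02 (SD, n = 3) in Rb/p53/p130 tumours, 7.38 ± 1.02 (SD, n = 9) in Rb/p53 tumours without tumour 7 and 6.20 ± 0.01 (SD, n = 2) in normal lung, and the tumour groups did not differ beyond their spread. Ddx1 was at 11.36 ± 0.05, 11.19 ± 0.34 and 10.36 ± 0.24 in the same order, again with the tumour groups inside their spread. Nbas was at 8.48 ± 0.02, 8.57 ± 0.36 and 8.75 ± 0.08, and no neighbours in this order differed beyond the spread of the Rb/p53 tumours. Lratd1 was at 9.61 ± 0.51, 8.22 ± 0.76 and 8.24 ± 0.03, with the last of these equal within their spread. Cyria was at 8.50 ± 0.12 and 8.51 ± 0.52 in the tumour groups, equal within their spread, and at 10.75 ± 0.14 in normal lung.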

How the data were processed

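Per the labels' protocols, RNA came from Trizol extracts and went through a RiboAmp kit with repeated amplification. The authors turned scans into log2 levels with RMA, which subtracts background, normalises arrays to each other and sums up probes (RMA is named in the submitters' processing notes, without version or build). Because RMA evens out arrays, a shift common to most genes is not visible in the deposited log2 values.

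The arrays hold 45101 probe sets, and 64 controls among them were not used. A probe set had 1 gene symbol in 34945 cases, several in 932 and none in 9160, and 34741 were matched to RefSeq (GRCm38.p6), used for names, gene order and promoters. A gene was its brightest probe set. Groups were compared with limma 3.58.1 (R 4.3.3; lmFit, eBayes) in 1 fit of all 15 arrays, with Benjamini-Hochberg adjustment over 45037 probe sets and a threshold of 0.05. The fit was tested on simulated data. The fit was repeated without tumour 7 and under the alternatives of the closing section. Sample numbers 1 and 2, shared by Rb/p53 tumours and lungs, did not pair them (correlations of deviations -0.004 and -0.055). Other genes were named by rule: raised genes within 25 measured genes of Mycn, the run's 2 flanking genes on each side, the 10 genes most correlated with Mycn, the MYC and MAX network and up to 4 genes of each other list. Members and lists were chosen with earlier results of these data known. Figures used matplotlib 3.10.9.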

Additional observations from a re-analysis of the deposited data

Results flagged for a closer look

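Among the 10 Rb/p53 tumours, tumour 7 was far from the others for 14 of the 17 probe sets looked at, those of the 5 members and the brightest of each further raised gene. The measure is the gap from the highest sample to the next, divided by the range of all 10, with a critical value of 0.466. Over all genes 8.81% (1602 of 18194) have such a sample at either end, and chance alone gives about 1 in 20. Since tumour 7 was high by the choice of these genes, the values describe that choice.

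The gap for Mycn was 0.541 in its brightest probe set and 0.816 in its second. For Ddx1 it was 0.737 and 0.736. For Nbas it was 0.737 in the brightest and 0.747 in the second, for which the other tumours were below the mark of 5.05. For Lratd1 it was 0.580. Cyria and the third Mycn probe set had none.

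Of the further genes near Mycn, the gap was 0.861 for Ldah, 0.818 for Ntsr2, 0.816 for Lpin1, 0.741 for Rdh14, 0.715 for Hs1bp3, 0.568 for Trib2 and 0.504 for Greb1. Greb1 was closest to the critical value, since it also varied among the other tumours (4.04 to 8.23).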

How the results depend on the processing

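The run from Mycn to Greb1 held 8 genes in every setting but 1: without probe sets of suffix _s, _x and _a it held 6, since Lratd1 and Ntsr2 then had no probe set. With a threshold of 0.5 for raised, 12 genes of the window passed. With the mean of a gene's probe sets the difference in tumour 7 was 3.12 for Mycn and 2.71 for Nbas. Without 1 array at a time the called genes ran from 4604 to 7194 (Rb/p53 against lung), from 3650 to 5956 (Rb/p53/p130 against lung) and from 3 to 21 (genotypes). With the Gapdh covariate they were 1106 and 940 against lung. With array weights, of which tumour 7 had the lowest (0.44), 662 genes differed between genotypes, and with the mean of probe sets 0 did in limma (1383 at an unadjusted p under 0.05). With the array number as a replicate block, which pairs nothing here and rests on tumours 1 and 2, 3891 genes were called against lung and Ddx1 was (1.13, limma adjusted p = 0.0340). Members that were not called changed sign in part. Without 1 array at a time, the genotype difference ran from -0.30 to 0.37 for Mycn (above 0 without tumours 1, 7 or 8), from -0.08 to 0.13 for Cyria (below 0 without tumour 2) and from -0.27 to 0.17 for Ddx1 (above 0 without tumour 7). With array weights it was 0.22 for Mycn and -0.05 for Cyria. In Rb/p53 tumours against lung the range was -0.18 to 0.28 for Nbas and -0.02 to 0.62 for Lratd1, below 0 without tumour 7 in both. The Gapdh covariate gave -0.40 and -2.43 for them, and the block -0.66 for Lratd1. In Rb/p53/p130 tumours against lung, the covariate gave -0.18 for Ddx1 and -1.62 for Lratd1. The cause of these changes was not tested. Apart from the Gapdh covariate, no setting tried ended or turned the call of Cyria against lung.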
